A study of Homo sapiens with 27 samples.

Results

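The genes described here encode 8 small leucine-rich proteoglycans of the extracellular matrix: decorin (DCN), lumican (LUM), biglycan (BGN), fibromodulin (FMOD), prolargin (PRELP), osteoglycin (OGN), asporin (ASPN) and podocan (PODN). They were chosen by name, with earlier results of these data known, as 8 of the 34584 genes measured. They were followed in 27 poly-A RNA sequencing libraries from 9 human cell lines, with 3 libraries per line. The lines were BJ (non-transformed skin fibroblasts, although the tissue label reads Epithelial), U2-OS (osteosarcoma, bone), U251 (glioma, brain), SK-Mel 24 and SK-Mel 28 (melanoma, skin), A549 (lung carcinoma), Caco2 (colon carcinoma), HepG2 (liver tumour) and RT4 (from a bladder papilloma, with a kidney label). None of the samples is labelled as treated or genetically altered. BJ and A549 were grown in DMEM, U2-OS and RT4 in McCoy's medium and the other 5 lines in EMEM, all with fetal bovine serum (a larger share for SK-Mel 24), so medium and line cannot be told apart. The series calls the 3 libraries of a line biological replicates without stating whether the cultures were separate, so a p-value here reflects only how far these libraries vary, which may be technical.

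Small leucine-rich proteoglycans are secreted proteins whose curved, repeat-built cores bind collagen fibrils and control how they assemble. Many carry glycosaminoglycan chains, and several also bind growth factors such as transforming growth factor beta or receptors at the cell surface. In connective tissue they are made mainly by fibroblasts, chondrocytes and related mesenchymal cells. They are grouped by sequence into classes: DCN, BGN and ASPN are class I, LUM, FMOD and PRELP class II, OGN class III, and PODN class V. Chondroitin or dermatan sulfate chains are typical of DCN and BGN, and keratan sulfate chains of LUM and FMOD.

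The BJ fibroblasts were called the highest line for 6 of the 8 genes, beside 2.94% of all tested genes, and FMOD was called highest in the Caco2 colon carcinoma line, beside 1.83%. BJ was the only fibroblast line and the only line not from a tumour, so line, cell type and origin cannot be told apart. Of the 6 genes, ASPN and PODN passed the low-count filter only through BJ. With DESeq2, a second count test, the differences of FMOD (adjusted p = 0.0755) and ASPN (adjusted p = 0.274) from the next line did not pass. OGN had 11 estimated counts in all 27 libraries and could not be tested. In BJ the 8 genes together reached 3308 ± 1078 TPM (transcripts scaled to a fixed total per library, mean ± SD, n = 3), against 147 ± 18.9 TPM in Caco2, 39.2 ± 6.3 TPM in SK-Mel 28, 20.32 ± 3.88 TPM in SK-Mel 24 and 11.93 ± 1.74 TPM in U2-OS. The other 4 lines had summed levels of 0.96 TPM (RT4) to 2.99 TPM (U251). TPM corrects reads for transcript length and for the size of the library. A comparison of different genes on it still depends on which transcripts are summed. LUM in BJ had 1772.2 TPM over all its transcripts and 494.9 TPM over protein-coding ones, so the BJ sum carries the same limit. In these bulk samples, a smaller share of cells with a transcript and less of it per cell cannot be told apart.

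Libraries held 15597117 to 32583547 estimated counts (reads assigned to genes). All 7 fibroblast markers examined (COL1A2, COL3A1, PDGFRB, THY1, FAP, TWIST2 and PRRX1) reached 1 TPM in BJ, with a sum of 6045 to 12160 TPM per library, and EPCAM, CDH1 and ESRP1, which define epithelial cells, stayed below 1 TPM there. KRT8, the other epithelial marker listed, reached 1 TPM in BJ, and the 4 summed to 33.01 to 36.41 TPM. The fibroblast markers were not limited to BJ: SK-Mel 24 had 7 of 7 at 1 TPM (sum 106.0 to 112.2 TPM), U2-OS 6 of 7 (290.2 to 342.1 TPM) and U251 5 of 7 (260.2 to 346.5 TPM), and the sum was at most 11.02 TPM in the other 5 lines. Defining markers were present in Caco2 (3 of 3 enterocyte), HepG2 (3 of 3 hepatocyte), RT4 (3 of 3 urothelial, against its kidney label), U251 (3 of 3 astroglial), SK-Mel 28 (4 of 4 melanocyte) and SK-Mel 24 (3 of 4, TYR below 1 TPM). The 3 astroglial markers also reached 1 TPM in both melanoma lines, with higher sums (6826.5 to 9570.7 TPM in SK-Mel 24 and 1550.2 to 1921.9 TPM in SK-Mel 28) than in U251 (107.0 to 179.9 TPM). All 3 hepatocyte markers also reached 1 TPM in Caco2, with a lower sum (131.7 to 216.8 TPM) than in HepG2 (3553.0 to 18773.0 TPM). U2-OS had 2 of 5 osteoblast markers, and A549 had 0 of 3 lung markers. Mitochondrial transcripts took 71.1%, 33.8% and 32.6% of counts in the HepG2 libraries and 0.93 to 5.72% in the other 24, which lowers the TPM of every other HepG2 gene.

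Most of the genes lie in 3 clusters with relatives (positions from GENCODE 29 on GRCh38). On chromosome 12, LUM (ENSG00000139329.4, chr12:91102629-91111831, minus strand) and DCN (ENSG00000011465.16, chr12:91140484-91183123, minus strand) stand beside KERA and EPYC within 219.4 kb. On chromosome 9, OGN (ENSG00000106809.10, chr9:92383967-92404696) and ASPN (ENSG00000106819.11, chr9:92456205-92482506), both on the minus strand, stand with OMD and ECM2 within 152.7 kb. All 4 overlap CENPP, which runs on the opposite strand. On chromosome 1, FMOD (ENSG00000122176.11, chr1:203340628-203351758, minus strand) and PRELP (ENSG00000188783.5, chr1:203475828-203491352, plus strand) stand with OPTC within 168.2 kb. BGN (ENSG00000182492.15, chrX:153494939-153509554, plus strand) overlaps HAUS7 on the opposite strand, and PODN (ENSG00000174348.13, chr1:53062052-53085502, plus strand) overlaps the pseudogene HIGD1AP11, also on the opposite strand. The libraries were made strand-specific, but whether the counting used strand is not given in the sources used here, so reads of overlapping opposite genes may not be separated.

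Upstream sequence is shown for 3 genes of the BJ group to show how unlike their start regions are. RefSeq windows of 250 bases before the start site (GRCh38.p14) were matched for 6 of the 8 genes. DCN and LUM had no entry. The BGN stretch (chrX:153494730-153494938, plus strand) and the PRELP stretch (chr1:203475556-203475805, plus strand) are printed with the ASPN stretch (chr9:92482507-92482756, minus strand), each 5′ to 3′ and without annotated exons of the gene. Capitals mark matches, on either strand, to GGGCGG (a GC box), to the CCAAT box, or to GGAATG (the core bound by TEAD factors).
BGN: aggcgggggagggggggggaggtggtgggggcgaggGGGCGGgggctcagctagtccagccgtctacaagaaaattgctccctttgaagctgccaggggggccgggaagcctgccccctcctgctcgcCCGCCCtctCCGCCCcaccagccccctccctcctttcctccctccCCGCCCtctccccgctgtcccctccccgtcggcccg
PRELP: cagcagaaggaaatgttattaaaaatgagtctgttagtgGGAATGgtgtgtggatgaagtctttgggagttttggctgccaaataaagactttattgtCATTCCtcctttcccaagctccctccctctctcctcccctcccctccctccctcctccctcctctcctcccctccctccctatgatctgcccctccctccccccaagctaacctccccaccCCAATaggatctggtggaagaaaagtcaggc
ASPN: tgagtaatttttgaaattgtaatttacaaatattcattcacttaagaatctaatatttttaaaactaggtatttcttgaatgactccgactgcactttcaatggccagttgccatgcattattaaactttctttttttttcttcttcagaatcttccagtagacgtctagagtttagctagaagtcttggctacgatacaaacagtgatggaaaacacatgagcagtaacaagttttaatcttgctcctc
Searched on both strands were 5 strings, none of which contains another, and each is given with its share among all 35116 windows of the table. The TATA string TATAAA was in 10.7% of windows, and GGGCGG in 42.6%. The CCAAT string was in 32.0%, the AP-1 string TGANTCA in 6.6%, and the TEAD core GGAATG in 11.9%. The BGN window held 5 GGGCGG matches, starting at -214, -122, -113, -77 and -21 from the start site (the last lies past the printed stretch), had 16 CG dinucleotides and was 74.0% G and C. PRELP held CCAAT at -31 and GGAATG at -211 and -152, with 0 CG dinucleotides. ASPN held none of the 5 strings and was 32.4% G and C. Of the windows not printed, PODN held GGGCGG at -90 and -66 and 23 CG dinucleotides. FMOD held TATAAA at -177, GGGCGG at -129 and -51 and CCAAT at -219, and OGN held TATAAA at -200. The whole FMOD window (chr1:203351123-203351372) lies inside the gene as GENCODE places it, with its start at 203351758 on the minus strand. Both PODN matches also lie inside their gene, which starts at 53062052. The FMOD and PODN matches are therefore not upstream of the GENCODE starts. The OGN match lies before the gene's start at 92404696, although part of the OGN window is inside the gene. The median window of the table was 58.0% G and C with 11 CG dinucleotides. A match is a description of letters and no evidence of a bound factor.

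Counts were compared between lines with edgeR's quasi-likelihood test, fitted on all 27 libraries and 17220 genes that passed a low-count filter. The F test over the 9 lines called 7 of the 8 genes, OGN not being tested, and it called 98.3% of all tested genes, so passing it says little about these genes. A line was called highest for a gene when its count level passed a one-sided test against each of the other 8 lines at an adjusted p under 0.05 and was at least 2-fold above each. DCN, LUM, BGN, PRELP, ASPN and PODN were called highest in BJ, as were 2.94% of all tested genes. FMOD was called highest in Caco2, as were 1.83%. ASPN and PODN passed the filter only through BJ: outside BJ, 1 library reached 10 counts of ASPN and 0 libraries reached 10 counts of PODN. The place of these 2 genes is therefore given as a description.

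**Figure D1:**
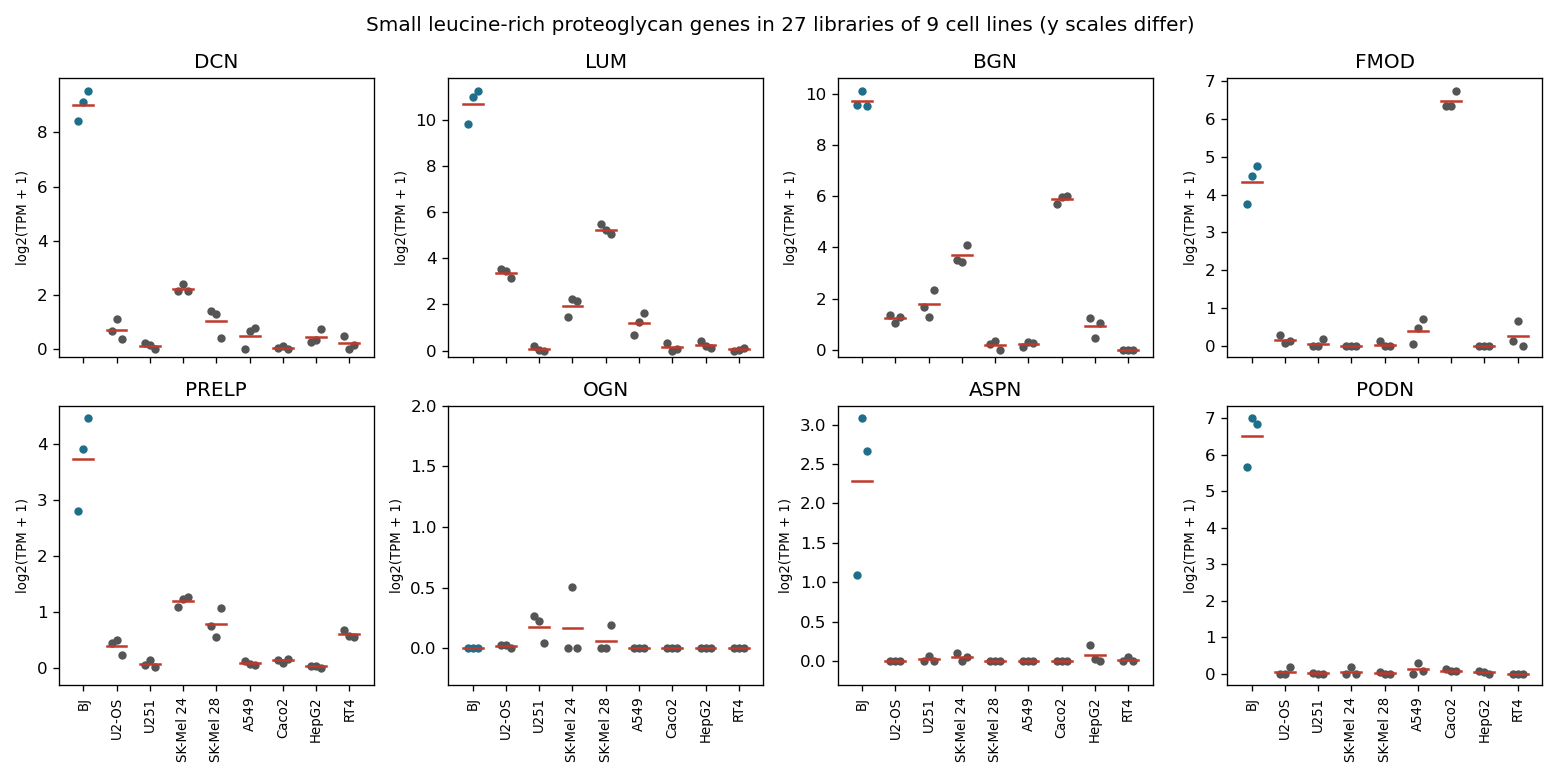
Level of each of the 8 genes in every library, as log2(TPM + 1) on the y axis, for the 9 lines on the x axis (points, libraries; red bars, means of these log values; BJ in blue; y scales differ between panels). BJ stands above the other lines for DCN, LUM, BGN, PRELP, ASPN and PODN, Caco2 for FMOD, and OGN is at 0 in 20 of the 27 libraries.

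DCN, a class I proteoglycan that binds type I collagen and sequesters transforming growth factor beta, measured 342.98, 559.30 and 730.79 TPM in the 3 BJ libraries. The next line, SK-Mel 24, had 3.42, 4.29 and 3.46 TPM. Every BJ library lay above every other library, and SK-Mel 24 lay above all libraries of the 7 remaining lines. The fitted difference between BJ and SK-Mel 24 was 7.83 ± 0.45 on the log2 scale (SE, adjusted p = 4.42e-13). SK-Mel 24 was in turn above SK-Mel 28 (1.17 ± 0.72 TPM) by 2.06 ± 0.43 (adjusted p = 0.000348), so the melanoma lines differed. By mean TPM, U2-OS, A549, HepG2, RT4, U251 and Caco2 came below SK-Mel 28, all under 1 TPM. The place of HepG2 depended on the scale: the count fit put it above A549 by 1.78 ± 0.69 (adjusted p = 0.0266) and 0.06 ± 0.58 from SK-Mel 28 (adjusted p = 0.957), and without mitochondrial genes it stood at 0.86 ± 0.36 TPM against 0.71 ± 0.46 TPM in U2-OS. U2-OS and A549 did not differ beyond their spread (0.45 ± 0.67, adjusted p = 0.592), and neither did RT4 and U251 or U251 and Caco2. Over all pairs of lines, 25 of 36 were called for DCN (adjusted p under 0.05 and at least 2-fold), where 43.3% of all gene-by-pair tests were called.

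BGN, the nearest relative of DCN and a ligand of toll-like receptors when free of the matrix, measured 751.84, 1086.89 and 728.32 TPM in BJ. Caco2 was next with 50.60, 61.39 and 62.68 TPM, and SK-Mel 24 followed with 10.50, 9.71 and 16.19 TPM. Each of these 3 lines stood apart from the others without overlap. BJ was above Caco2 by 4.04 ± 0.52 on the log2 scale (adjusted p = 4.25e-07), Caco2 above SK-Mel 24 by 2.44 ± 0.49 (adjusted p = 0.000146), and SK-Mel 24 above U251 (2.58 ± 1.36 TPM) by 2.19 ± 0.50 (adjusted p = 0.00102). U251 and U2-OS (1.34 ± 0.28 TPM) did not differ beyond their spread (1.16 ± 0.53, adjusted p = 0.0721). RT4 had 0 counts in all its libraries, which puts BJ at least 37074-fold higher (against 3 counts over the 3 RT4 libraries, counting error only). Called pairs numbered 31 of 36, beside 43.3% of all gene-by-pair tests.

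Biglycan in HepG2 depended on the scale. Its mean was 0.93 ± 0.51 TPM, below U2-OS, but the count fit placed HepG2 above U2-OS (U2-OS minus HepG2 -2.03 ± 0.55, adjusted p = 0.00209), and HepG2 stood at 2.98 ± 3.11 TPM when mitochondrial genes were left out. Protein-coding BGN transcripts held only 0.06 ± 0.11 TPM of the HepG2 value. In BJ they held 853.3 ± 199.4 of 855.7 TPM. The part of the high mitochondrial share or of overlapping genes in the HepG2 value was not tested.

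ASPN, a class I relative that carries a stretch of aspartate residues and lacks the usual chain attachment, was the least abundant gene of the group called in BJ. It measured 1.13, 7.49 and 5.36 TPM there, from 31 counts in the lowest and 297 in the highest library. Outside BJ, only HepG2 replicate 1 reached 10 counts (13), and A549, Caco2, SK-Mel 28 and U2-OS had 0 counts. Over those 4 lines BJ was at least 222-fold higher (Caco2) to at least 295-fold higher (U2-OS), taking 3 counts over each line's 3 libraries as the floor. The fitted difference between BJ and HepG2 was 4.14 ± 1.01 (adjusted p = 0.00165), but it did not pass with DESeq2 (3.83, adjusted p = 0.274). Leaving out HepG2 replicate 1 raised it to 7.53. ASPN was no longer called highest in BJ without HepG2 replicate 2, HepG2 replicate 3 or BJ replicate 2. The same held with the number in the sample titles as a covariate. Of the 36 pairs, 14 were called for ASPN, a description, beside 43.3% of all gene-by-pair tests.

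LUM, a class II proteoglycan that spaces collagen fibrils and is best known from the cornea, had the highest TPM of the group in BJ: 901.74, 2028.77 and 2386.16. SK-Mel 28 was next with 43.14, 36.32 and 31.68 TPM, then U2-OS with 10.47, 9.84 and 7.86 TPM, and SK-Mel 24 with 1.77, 3.65 and 3.42 TPM. These 4 lines did not overlap. BJ was above SK-Mel 28 by 5.84 ± 0.47 on the log2 scale (adjusted p = 1.07e-10), SK-Mel 28 above U2-OS by 2.18 ± 0.40 (adjusted p = 5.33e-05), and U2-OS above SK-Mel 24 by 1.48 ± 0.43 (adjusted p = 0.00469). SK-Mel 24 and A549 (0.58, 1.35 and 2.08 TPM) were 1.08 ± 0.47 apart, which did not pass (adjusted p = 0.0604). The melanoma lines had opposite orders for LUM and DCN: LUM was higher in SK-Mel 28, by 3.66 ± 0.44 (adjusted p = 2.21e-07), and DCN in SK-Mel 24. Of the 36 pairs, 31 were called, beside 43.3% of all gene-by-pair tests.

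The LUM level in TPM rested on short non-coding transcripts. In BJ, the protein-coding LUM-201 (3008 bases) held 29.6 ± 6.2% of the gene's TPM, and 2 processed transcripts, LUM-202 (793 bases) and LUM-203 (992 bases), held 53.3 ± 8.5% and 17.0 ± 14.7%. LUM-203 took 0.1% in BJ replicate 1 and 26.0% and 25.0% in replicates 2 and 3. It also took 0.0% in SK-Mel 24 replicate 3, SK-Mel 28 replicate 3 and U2-OS replicate 1, so such a drop was not particular to BJ. Counted in reads rather than TPM, LUM-201 took 74.8%, 60.1% and 61.5% of the LUM reads in BJ, because TPM weighs a read on a short transcript more. Over protein-coding transcripts only (an alternative added after the data were seen), LUM in BJ measured 494.9 ± 152.6 TPM against 1772 ± 775 TPM over all. The ranking of means inside BJ then changed from LUM, BGN, DCN to BGN, DCN, LUM. This order was not firm: DCN exceeded BGN in replicate 3 (730.8 against 726.2 TPM), and the DCN and LUM means differed by less than their SDs. The ranking of LUM across BJ, SK-Mel 28 and U2-OS stayed the same (10.95 ± 1.16 and 3.00 ± 1.36 TPM in the latter 2). DCN and BGN kept 544.3 ± 194.3 and 853.3 ± 199.4 TPM in BJ when only coding transcripts were summed.

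DCN was spread over many transcripts, 20 being listed, 19 of them protein coding. In BJ, DCN-220 (1930 bases) held 44.9 ± 11.1% of its TPM, DCN-202 (2133 bases) 30.2 ± 17.8% and DCN-210 (823 bases) 15.2 ± 0.8%. The share of DCN-202 was 9.8% in BJ replicate 1 and 42.0% and 38.9% in replicates 2 and 3. Replicate 1 also had the lowest LUM-203 share in BJ, but single libraries of other lines lost LUM-203 as well. PRELP has 1 listed transcript, ASPN-202 held 97.0% of the ASPN level in BJ and PODN-201 held 95.4% of the PODN level.

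**Figure D2:**
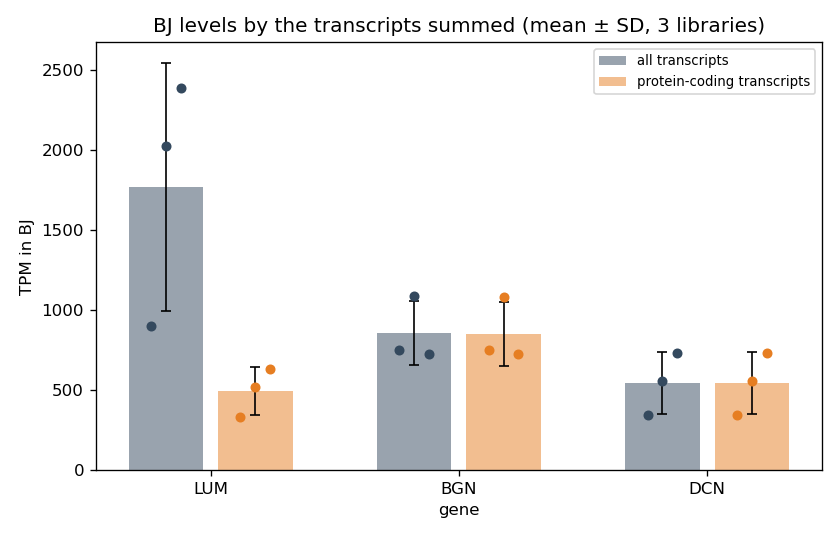
TPM of LUM, BGN and DCN in BJ on the y axis, summed over all transcripts (grey) or protein-coding transcripts only (orange); bars are means of 3 libraries with SD, points are libraries. LUM goes from 1772 to 494.9 TPM, BGN from 855.7 to 853.3 TPM and DCN from 544.4 to 544.3 TPM.

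FMOD, a class II proteoglycan that binds collagen and carries sulfated tyrosines near its start, was the tested gene not called highest in BJ. It measured 80.18, 79.82 and 104.99 TPM in Caco2 and 12.46, 21.42 and 26.01 TPM in BJ, and no library of the other 7 lines exceeded 0.63 TPM. Caco2 and BJ did not overlap, and Caco2 was above BJ by 1.94 ± 0.42 on the log2 scale (adjusted p = 0.000398). This call was lost with DESeq2, where the difference was 1.97 with an adjusted p of 0.0755. It passed when any library was left out (1.68 to 2.20, highest adjusted p 0.00279). BJ was above A549, the next line, by 6.35 ± 0.56 (adjusted p = 1.78e-09). SK-Mel 24 had 0 counts, which puts Caco2 at least 4352-fold higher than it. Of the 36 pairs, 22 were called, beside 43.3% of all gene-by-pair tests. In Caco2 the fibroblast markers COL1A2, THY1, FAP, TWIST2 and PRRX1 stayed below 1 TPM, while COL3A1 and PDGFRB reached it. The sum over all 7 was 3.00 to 9.52 TPM. Enterocyte markers summed to 297.5 to 536.3 TPM and hepatocyte markers to 131.7 to 216.8 TPM. The 3 myofibroblast and smooth muscle markers (ACTA2, TAGLN and CNN1) summed to 156.6 to 1186.5 TPM there, with ACTA2 below 1 TPM, and to 3365.7 to 8264.1 TPM in BJ.

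FMOD and BGN together made up nearly all of the group in Caco2, 60.0 ± 3.2% and 39.8 ± 3.2% of its summed TPM. BGN-201 and FMOD-201, the main coding transcripts, held 98.7% and 98.5% of their genes' TPM in BJ and 98.0% and 96.7% in Caco2. The same transcripts therefore carried these genes in both lines. Biglycan and fibromodulin had Pearson r = 0.794 across the 9 line means of log2(TPM + 1). BGN had similar values with PODN (0.814), DCN (0.799) and PRELP (0.774) and a lower one with LUM (0.62), so r does not set FMOD apart. These r are a description, since the means of all genes come from the same libraries.

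PRELP, a class II protein that anchors basement membranes to connective tissue by binding perlecan and collagen, measured 6.01, 14.03 and 21.05 TPM in BJ. SK-Mel 24 was next with 1.12, 1.36 and 1.41 TPM, SK-Mel 28 had 0.68, 0.47 and 1.09 TPM and RT4 0.61, 0.49 and 0.46 TPM. BJ did not overlap any other line, but the lines behind it were close to each other. BJ was above SK-Mel 24 by 3.74 ± 0.49 on the log2 scale (adjusted p = 5.99e-07). SK-Mel 24 minus SK-Mel 28 was 0.77 ± 0.47 (adjusted p = 0.183), and SK-Mel 28 minus RT4 was 0.19 ± 0.48 (adjusted p = 0.757). Of the 36 pairs, 25 were called, beside 43.3% of all gene-by-pair tests.

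OGN, a class III protein also known as mimecan, was nearly absent. It had 0 counts in 20 of 27 libraries, its highest count was 3, and its highest level was 0.42 TPM. In BJ the count was 0, which allows up to 0.0516 CPM, counts scaled to a fixed library total (3 counts over the 3 libraries, counting error only). Its neighbour ASPN, 77.81 kb away in the same cluster when measured between start sites, was present in BJ at the levels above. OMD, between them, had 12 counts in all libraries, and ECM2, an extracellular matrix protein at the other end of the cluster, had 774. ECM2 averaged 1.89 ± 0.56 TPM in U251 and 1.45 ± 1.08 TPM in BJ, which did not differ beyond their spread (0.24 ± 0.63 on the log2 scale, adjusted p = 0.798).

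PODN, a class V protein described in glomeruli and smooth muscle, measured 50.27, 126.66 and 114.27 TPM in BJ. No library outside BJ had more than 8 counts, and RT4 had 0 in all 3 libraries. BJ was therefore at least 5570-fold above RT4. A549 had the next highest mean, with 0, 8 and 3 counts. The fitted difference between BJ and A549 was 10.59 ± 0.54 on the log2 scale (adjusted p = 2.14e-13). Since PODN passed the filter only through BJ, the size of this difference is a description. So is its count of called pairs, 13 of 36, beside 43.3% of all gene-by-pair tests. Its class relative PODNL1 had 13.16 ± 6.46 TPM in BJ and 15.71 ± 10.74 TPM in U2-OS, a log2 difference of 0.36 ± 0.51 that did not pass (adjusted p = 0.562).

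**Figure D3:**
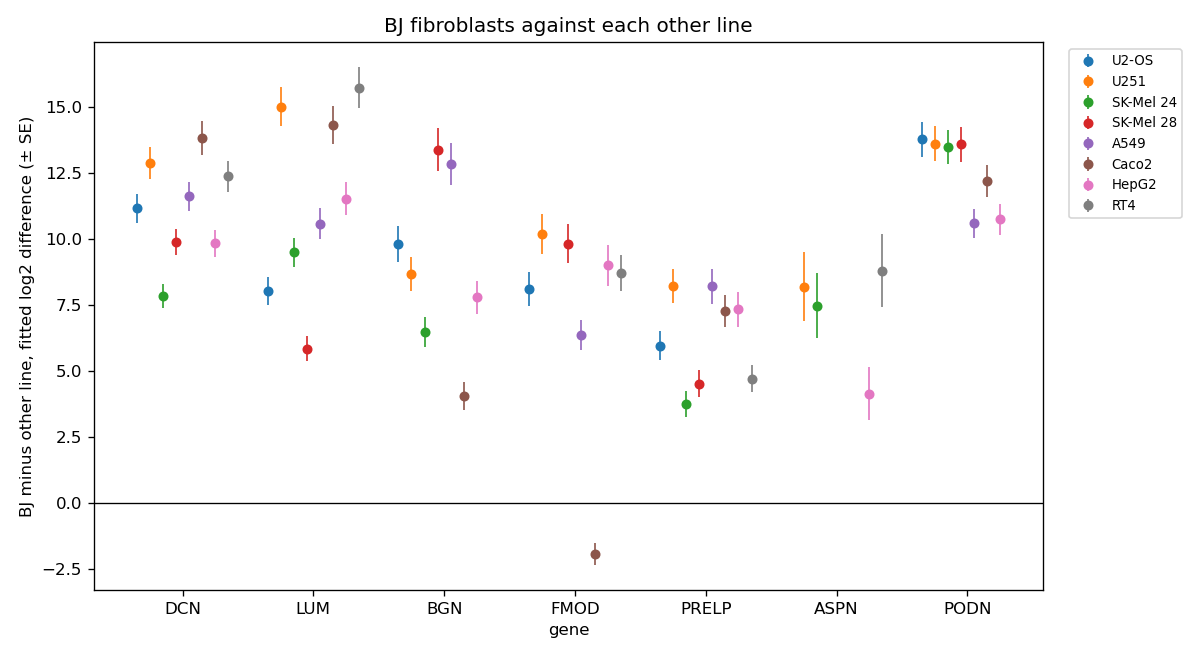
Fitted log2 difference between BJ and each other line for the 7 tested genes (y axis; points are estimates, lines their SE; colours are the other lines). All points lie above 0 except FMOD against Caco2, where Caco2 was higher by 1.94, and lines in which a gene had 0 counts are left out.

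Neighbours in the other clusters also had unlike levels. On chromosome 12, LUM and DCN had 109715 and 40987 counts over all libraries, while their neighbours KERA, a cornea proteoglycan, and EPYC, a cartilage proteoglycan, had 2 and 19. On chromosome 1, FMOD had 16235 counts and PRELP 4627, while OPTC, first described in the eye, had 6. FMOD and PRELP start 124.1 kb apart and were highest in different lines, Caco2 and BJ. LUM and DCN were highest in the same line but ordered the 2 melanoma lines differently.

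**Figure D4:**
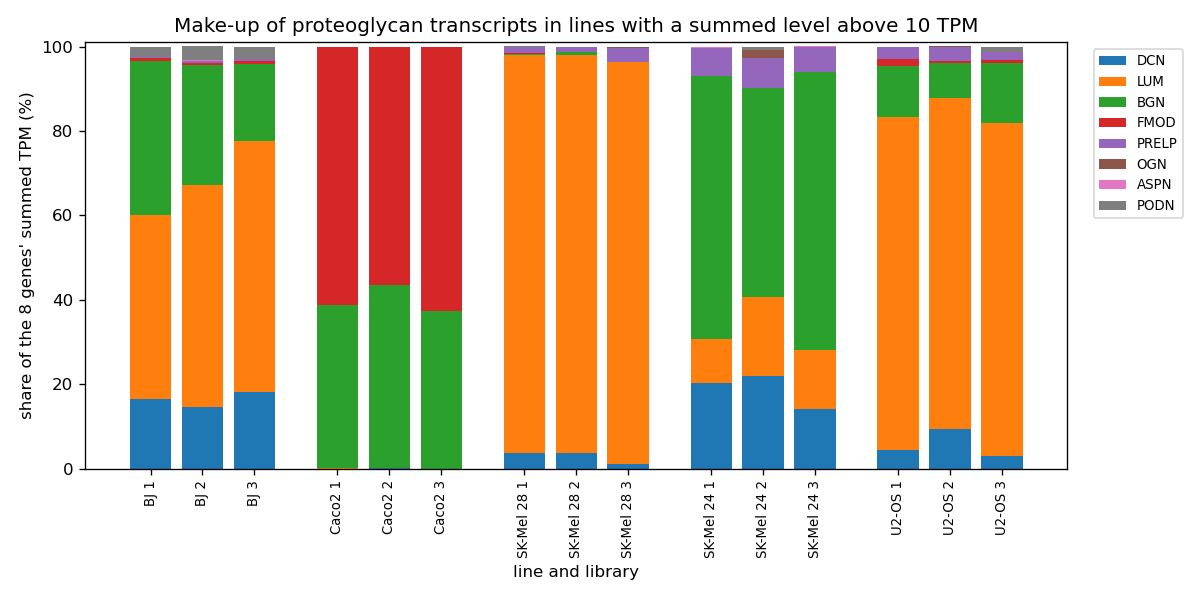
Share of each gene in the summed TPM of the 8 genes (y axis, %), for every library of the 5 lines whose summed level was above 10 TPM. LUM takes the largest share in SK-Mel 28, U2-OS and BJ, BGN in SK-Mel 24 and FMOD in Caco2.

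The make-up of the group differed by line. In BJ, LUM made up 52.0 ± 8.0% of its TPM, BGN 27.6 ± 9.1%, DCN 16.5 ± 1.8% and PODN 2.9 ± 0.4%. SK-Mel 28 was almost entirely LUM (94.6 ± 0.6%), and U2-OS was LUM for 78.7 ± 0.3% with BGN at 11.5 ± 3.0%. SK-Mel 24 had BGN at 59.3 ± 8.6%, DCN at 18.8 ± 4.1%, LUM at 14.4 ± 4.1% and PRELP at 6.5 ± 0.6%. In BJ, 7 genes reached 1 TPM on average, 4 did in SK-Mel 24, 2 in SK-Mel 28, U2-OS and Caco2, 1 in A549 and U251, and 0 in HepG2 and RT4. The LUM shares are over all its transcripts, with the limit given above.

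The 3 BJ libraries were not alike for these genes. BJ replicate 1 was lowest for 6 of the 7 genes present, and the highest library exceeded it 2.09-fold for FMOD, 2.13-fold for DCN, 2.52-fold for PODN, 2.65-fold for LUM, 3.5-fold for PRELP and 6.64-fold for ASPN. BGN was lowest in replicate 3 (728.3 TPM), close to replicate 1 (751.8 TPM), with highest over lowest 1.49-fold. Replicate 1 was also lowest for COL1A1 (highest over lowest 2.4-fold), COL1A2 (2.5-fold) and COL3A1 (2.41-fold), which encode fibrillar collagens, and for ACTA2 (5.6-fold) and TAGLN (2.19-fold), which encode contractile proteins. It was lowest as well for the fibroblast markers FAP (1.73-fold) and PDGFRB (1.72-fold). THY1, another fibroblast surface marker, differed 1.11-fold and was lowest in replicate 2. The sample title of replicate 1 carries the number 8 after a letter P, and those of replicates 2 and 3 carry 5 and 6. What that number stands for is not stated. With it as a covariate over all lines, the log2 margin of BJ over the next line was 4.95 for LUM (5.84 without it) and 3.43 for BGN (4.04). Both were still past the threshold against that line. For ASPN and PODN, which passed the filter only through BJ, the margins of 5.15 (4.14) and 11.48 (10.59) are a description. ASPN was then not called highest over all lines.

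The low A549 values were set beside BJ, because the library codes of A549 and BJ follow each other directly in each of the 3 sets. LUM had 8, 37 and 50 counts in A549 replicates 1 to 3 and 15145, 42608 and 48493 in BJ, a share of 0.0528%, 0.0868% and 0.103%. A549 had 0.0175 to 0.0468% of the BJ count for DCN and 0.0101 to 0.0301% for BGN. Replicate 1 was lowest in both lines for LUM and DCN. PRELP differed, with 6, 6 and 4 counts in A549 replicates 1 to 3 against 410, 1373 and 1966 in BJ. FMOD stood higher, at 0.212 to 2.22%. COL1A2, more abundant in BJ than LUM, stood lower, at 0.00208%, 0.00932% and 0.0151%. COL1A1 did not, at 0.0733%, 0.0412% and 0.0587%, and COL3A1 stood at 0.143%, 0.0514% and 0.0538%. The matrix protein gene SPARC stood at 0.796%, 0.222% and 0.237%. Whether any of the A549 reads came from BJ was not tested, and the A549 levels of LUM and DCN are given with that limit.

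The genes whose line means followed each proteoglycan most closely, by Pearson r over 9 line means of log2(TPM + 1) among 11510 protein-coding genes that reached 10 TPM in some line, differed from gene to gene. For DCN they were SGIP1 (r = 0.995), VIT (0.994) and MXRA5 (0.994), for LUM LDB2 (0.966), LAMA2 (0.955) and FLT1 (0.953), and for BGN FBLN2 (0.966), MMP11 (0.950) and SIDT2 (0.879). FMOD was followed by IRX2 (0.990), MAP6 (0.947) and GAL (0.930), with IRX2 at 10.79 ± 4.01 TPM in Caco2 and 2.71 ± 0.47 TPM in BJ. PRELP was followed by ACKR4 (0.987), DCN (0.984) and FLT1 (0.982), and PODN by MRGPRF, ASB5 and ADAM33 (0.999 to 1.00). A gene seen in a single line reaches a high r with any other such gene, and 36 genes had r of 0.98 or more with PODN. Within the group, DCN and PRELP had r = 0.984 and DCN and PODN 0.973, but DCN and FMOD only 0.388 and LUM and FMOD 0.280. All points share libraries and depth, and r is a description.

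**Figure D5:**
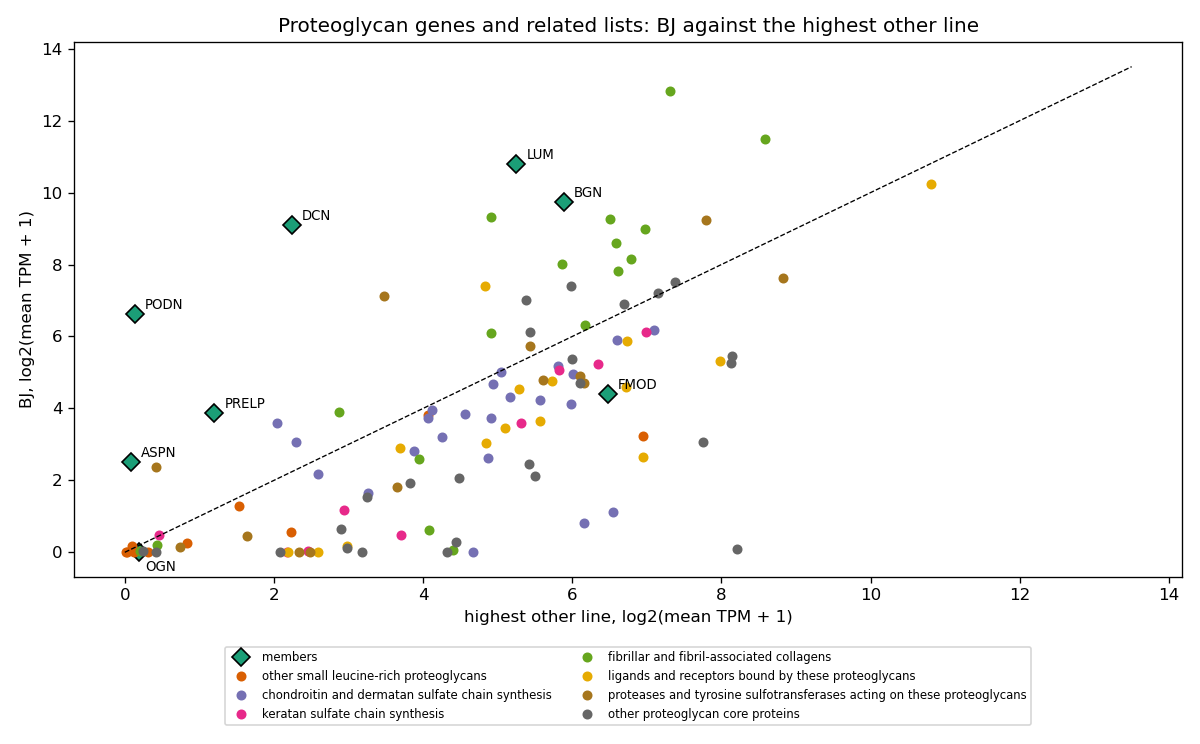
Mean level in BJ (y axis) against the highest mean among the other lines (x axis), both as log2(mean TPM + 1), for the 8 genes (diamonds) and the genes of 7 related lists (circles, colours as in the legend). DCN, LUM, BGN, PRELP, ASPN and PODN lie above the dashed line of equal levels and FMOD below it.

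Other genes of the matrix and of proteoglycan biology were counted in 7 lists chosen for what their members are known to do. Earlier results of these data were known when the lists were chosen, so the counts are not independent of them. Of 17 fibrillar and fibril-associated collagens tested, 11 were called highest in BJ and 2 in another line, beside 2.94% and 20.9% of all tested genes. COL1A2, a chain of type I collagen, reached 7215 ± 3025 TPM in BJ and stood 5.56 ± 0.70 (log2, adjusted p = 3.97e-07) above the next line. COL3A1 (639 ± 263 TPM, margin 5.16 ± 0.47, adjusted p = 1.45e-09), COL1A1 (2877 ± 1303 TPM, margin 3.84 ± 0.65, adjusted p = 1.87e-05) and COL6A3 (617 ± 94.42 TPM, margin 3.02 ± 0.44, adjusted p = 3.1e-06) followed. COL27A1 was highest in HepG2 and COL14A1 in U251. The median difference of the list between BJ and the other lines was 6.17 on the log2 scale, against -0.01 over all tested genes.

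Enzymes that build the sugar chains were called highest in BJ less often than the collagens. Of 23 chondroitin and dermatan sulfate enzymes, 2 were highest in BJ (8.7%) and 6 elsewhere (26.1%), beside 2.94% and 20.9% of all tested genes. The median of this list was 0.73. The 2 were DSEL, a homologue of dermatan sulfate epimerase (10.98 ± 0.54 TPM, margin 2.13 ± 0.37, adjusted p = 3.84e-05), and XYLT1, which starts the chains by adding xylose (7.38 ± 1.83 TPM, margin 1.43 ± 0.34, adjusted p = 0.000783). CHST13 was highest in HepG2 and CHST11 in SK-Mel 28 (92.34 ± 3.37 TPM), both chondroitin 4-O sulfotransferases. Of 9 keratan sulfate enzymes, 0 were highest in BJ, beside 2.94% of all tested genes, so this count says little. Another 2 (22.2%, beside 20.9%) were highest elsewhere, CHST5 in HepG2 at 0.38 ± 0.30 TPM and B3GNT7 in SK-Mel 24. The median of this list was -0.19. At an unadjusted p under 0.05, edgeR placed 0 of these 9 highest in BJ, and DESeq2 placed 0 after adjustment. Of the keratan sulfate carriers, FMOD was called highest in Caco2 and LUM in BJ. This list had no gene called highest in either line, which does not mean that its genes were low there.

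Of 15 tested ligands and receptors bound by these proteoglycans, 1 was highest in BJ (6.67%) and 4 elsewhere (26.7%), beside 2.94% and 20.9% of all tested genes. LRP1, an endocytic receptor of decorin, was the 1 in BJ (169.5 ± 45.65 TPM, margin 2.54 ± 0.29, adjusted p = 7.04e-08). Among the 4 were ERBB4 in SK-Mel 24 and TGFBR2 in A549. Of 13 proteases and sulfotransferases that act on them, 3 were highest in BJ (23.1%, beside 2.94%) and 2 elsewhere (15.4%, beside 20.9%). Those in BJ were MMP3 (138 ± 38.65 TPM, margin 4.23 ± 0.62, adjusted p = 3.57e-06), ADAMTS5 (4.14 ± 2.60 TPM, margin 3.94 ± 0.59, adjusted p = 1.67e-05) and MMP2 (604 ± 145 TPM, margin 1.93 ± 0.34, adjusted p = 4.18e-05). MMP9 was highest in U2-OS and ADAMTS4 in U251. Of 24 other proteoglycan core proteins tested, SRGN was called highest in BJ by edgeR after adjustment (127 ± 24.38 TPM, margin 1.93 ± 0.39, adjusted p = 0.000177). That is 4.17% of the list, beside 2.94%. Another 5 (20.8%, beside 20.9%) were highest elsewhere, with SPOCK2 in HepG2 and GPC5 in Caco2 by the largest margins. In that list 2 genes were highest in BJ at an unadjusted p under 0.05, and 2 with DESeq2. Of 10 other small leucine-rich proteoglycans listed, 5 were tested. In BJ 0 were highest, beside 2.94% of all tested genes, so this count says little. Another 2 were highest elsewhere (40%, beside 20.9%): TSKU in A549 (122.3 ± 2.99 TPM, margin 2.37 ± 0.22, adjusted p = 1.34e-09) and CHADL in HepG2 (3.68 ± 2.10 TPM, margin 5.07 ± 0.57, adjusted p = 2.1e-08). At an unadjusted p under 0.05, edgeR placed 0 of these 5 highest in BJ, and DESeq2 placed 0 after adjustment.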

How the data were processed

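Poly-A, strand-specific RNA libraries of 9 cell lines, 3 per line, were analysed from 1 deposited table each. Per the file headers, the authors' tables give an estimated count and a TPM for each of 176241 transcripts. Per the submitters' processing notes, CASAVA 1.8, kallisto 0.43.1 and GRCh 38 were used. The deposited estimated counts are reads shared among transcripts, and the deposited TPM is scaled to effective length and library total.

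Both were summed to genes through GENCODE 29, which matched 159887 transcripts (34584 genes) and left 16354 (9.28%) out. Summed counts were rounded. Lines are the groups, and libraries were numbered in accession order. Replicates differed by more than sampling noise (lowest chi-square ratio 5.96, against 1 for sampling alone).

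The counts were tested in R 4.3.3 with edgeR 4.0.16 (quasi-likelihood, robust, TMM, filterByExpr, 1 coefficient per line). The fit held 17220 genes and had a biological coefficient of variation of 24.2%. P-values were adjusted by Benjamini-Hochberg over all tested genes, in pairwise tests within each of 36 pairs. Standard errors are the log2 difference divided by the root of its F value. DESeq2 1.42.0, limma 3.58.1 with a block, other scaling, filters and left-out libraries were alternatives. Genes named were all 8 proteoglycans, the 3 most like each, up to 4 highest in BJ and 2 highest elsewhere per list, and cluster neighbours. COL1A1, COL1A2, COL3A1, ACTA2, TAGLN, THY1, FAP and PDGFRB in the comparison of BJ libraries were outside this rule and chosen after their values were seen. The same holds for COL1A1, COL1A2, COL3A1 and SPARC in A549. The 8 genes and all lists were chosen with earlier results of these data known. Protein sequence features were planned and were not run.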

Additional observations from a re-analysis of the deposited data

How the results depend on the processing

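The 7 tested proteoglycan genes were compared under DESeq2, other scaling factors, no low-count filter, coding transcripts only, no mitochondrial genes, no HepG2, a covariate for the title number, no minimum fold, limma, and each library left out. Across all results and alternatives, counts over all tested genes included, 539 kept their direction and side of the threshold or stayed within 1.5 times (for TPM levels, within the SD). Another 7 did not, and none reversed. A fall from 6 to 5 proteoglycan genes called highest in BJ is within 1.5 times. For that count, settings in which ASPN was no longer called highest in BJ are therefore among the 539. With DESeq2, 0 of the genes were called highest in Caco2 (FMOD, log2 difference 1.97, adjusted p = 0.0755), and ASPN between BJ and HepG2 had 3.83 (adjusted p = 0.274). Without HepG2, 749 genes were called highest in Caco2 against 315. LUM in BJ was 494.9 TPM over coding transcripts. Of the 18 most alike genes, 11 stayed among the 3 most alike with log2(TPM + 0.1) and 10 when genes of 1 TPM or more were searched. The cause of these changes was not tested, except that removing HepG2 removes a line that a gene must exceed.

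When each library was left out, the log2 margin of the top line ran from 7.52 to 8.12 for DCN, 5.57 to 6.13 for LUM, 3.82 to 4.23 for BGN, 1.68 to 2.20 for FMOD, 3.28 to 4.10 for PRELP, 3.47 to 7.53 for ASPN and 10.18 to 11.68 for PODN. Genes called highest in BJ ran from 453 to 558. With the title number as a covariate these margins were 7.36, 4.95, 3.43, 2.29, 3.51, 5.15 and 11.48, in the same order of genes. The labels give lines no shared replicate numbers, but library codes fall into 12 sets of consecutive codes whose meaning is not stated. With the code set as a replicate block in limma (chosen after seeing the data, consensus correlation 0.043), the margins were 7.72, 5.75, 4.06, 1.97, 3.59, 5.18 and 11.01, each within 0.01 of limma without the block, and no call changed. Levels under 1 TPM rest on few counts, and most neighbouring lines there were not separated by the test.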
